A study of Mus musculus with 2 samples.

Results

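The genes described here are 9 components and regulators of the complement system, C3, C4b, C7, C1s1, C1ra, Cfb, Cfd, Serping1 and Cd55, followed through the fibroblasts, vessel wall cells, endothelium and endocardium of the mouse heart. They were listed by name, with earlier results of these data known, and all 9 were found among the 31053 genes of the files. The data are single-cell RNA sequencing counts from 2 libraries of heart cells from which cardiomyocytes and CD45-positive leukocytes had been removed. The control library came from db/+ mice, in which the leptin receptor gene Lepr is mutated on a single copy. The other library came from db/db mice given 1% salt, used by the submitters to model HFpEF (heart failure in which the ejection fraction is preserved); the db mutation on both copies is known to cause obesity and diabetes. The design lists 4 male hearts per genotype, and cells could not be assigned to single animals. The labels read here state neither the ages of the mice, nor the salt intake of the db/+ mice, nor any pooling of hearts. A single library stands for each group, so no test can be made, genotype and salt cannot be told apart, and all intervals below are 95% intervals that cover counting error only.

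Complement is a cascade of plasma and tissue proteins that tags particles for removal and can open pores in membranes. The classical pathway starts when C1q binds its target and activates the proteases C1r and C1s, which cleave C4; the alternative pathway builds its own enzyme from C3b, factor B and factor D. Both meet at the cleavage of C3, and the terminal components, C7 among them, assemble the membrane attack complex. Most circulating complement is made in the liver, and connective tissue cells are known to make several of the components locally. C1 inhibitor, the product of Serping1, blocks C1r and C1s, and Cd55 (decay-accelerating factor) takes apart the enzymes that cleave C3 on the surface of host cells.

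The promoters of 4 members that differed in their behaviour below are shown first, because C3 and C7 were lower together in the fibroblasts of the db/db and salt library while Cd55 was not, and C1s1 differed in sign between fibroblasts and mural cells. Each is the 250 bases that end just before the annotated start, 5′ to 3′ on the gene's own strand, taken from RefSeq on GRCm38.p6. The windows are chr17:57228137-57228386 on the minus strand for C3, chr15:5063774-5064023 on the minus strand for C7, chr6:124542360-124542609 on the minus strand for C1s1 (the farther upstream of its 2 listed starts) and chr1:130462745-130462994 on the minus strand for Cd55. Capitals mark matches on either strand to any of 5 motifs: the TATAAA box, TTGCNNAA (C/EBP), TTCNNNGAA (STAT), GAAA repeated after any 2 bases (interferon response element), and GGGA and TTTCC with any base between them (NF-kB), where N is any base.
C3: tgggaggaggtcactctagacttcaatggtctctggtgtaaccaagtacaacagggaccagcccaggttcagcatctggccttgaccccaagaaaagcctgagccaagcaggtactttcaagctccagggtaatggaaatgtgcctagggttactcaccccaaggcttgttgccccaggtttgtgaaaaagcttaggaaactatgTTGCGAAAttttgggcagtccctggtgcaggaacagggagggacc
C7: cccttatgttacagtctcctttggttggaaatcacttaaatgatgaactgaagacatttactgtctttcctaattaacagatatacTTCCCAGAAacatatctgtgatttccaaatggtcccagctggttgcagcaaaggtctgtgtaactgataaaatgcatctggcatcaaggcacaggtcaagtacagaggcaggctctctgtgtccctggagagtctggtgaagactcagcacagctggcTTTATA
C1s1: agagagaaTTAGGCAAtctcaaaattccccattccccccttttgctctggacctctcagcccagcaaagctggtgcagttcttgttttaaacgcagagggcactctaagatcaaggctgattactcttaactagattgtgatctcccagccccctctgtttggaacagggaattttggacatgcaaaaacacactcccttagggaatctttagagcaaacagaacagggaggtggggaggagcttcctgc
Cd55: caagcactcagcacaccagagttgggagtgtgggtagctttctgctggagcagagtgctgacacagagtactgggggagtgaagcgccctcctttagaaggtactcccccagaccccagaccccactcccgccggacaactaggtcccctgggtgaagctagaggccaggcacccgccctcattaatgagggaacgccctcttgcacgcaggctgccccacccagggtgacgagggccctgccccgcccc

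The C3 window held a C/EBP match at 45 to 38 bases before the start, and the C1s1 window held its C/EBP match at 242 to 235 bases before it, on the other strand. The C7 window held a STAT match at 164 to 156 bases and a TATA match on the other strand in its last 6 bases. None of the 5 motifs matched in the Cd55 window, whose GC content was 64%, against 52% for C3, 48% for C1s1 and 43.2% for C7. Over the same 250 bases of all 32851 promoter windows of the table, the C/EBP motif matched in 9.56%, the STAT motif in 7.02%, the TATA motif in 12.4%, the interferon response element in 2.98% and the NF-kB motif in 0.356%. These are matches of letters and describe no binding. Of the 9 members 6 had an entry in the promoter table; C4b, Cfb and Serping1 had none.

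A UMI tags 1 captured RNA molecule. In all, 5676 barcodes with 44935235 UMIs were read for db/+ and 4751 barcodes with 40974634 UMIs for db/db and salt. After filtering, 4872 and 4097 barcodes remained, with a median of 7047 and 7773 UMIs. Marker UMIs placed 4260 and 3734 of them in 14 classes: 1186 and 1061 were fibroblast-like, 192 and 160 mural-like, 2807 and 2437 endothelial-like in 6 subtypes, 52 and 52 endocardial-like and 23 and 24 lymphatic endothelial-like. The fibroblast-like barcodes split into interstitial-like (142 and 225), matrix-activated-like (240 and 141), adventitial-like (190 and 157) and remaining fibroblast-like barcodes (614 and 538), which no subset list led and whose leading genes were Mmp3, Smoc2, Gsta3 and Gsn. Cd55 itself was among the 10 leading genes of the adventitial-like class and C3 among those of the remaining class. Neither was on a marker list, and leading genes compare a class with all other classed barcodes, most of them endothelial-like. Among the fibroblast subsets C3 was not highest in the remaining class in either library, as given below. Every other named class had 3 to 7 of its own markers and at most 1 of another class among its 10 leading genes. Fibroblast-like barcodes were deeper in the db/db and salt library in each subset (medians of 10445 to 14900 UMIs, against 7980.5 to 11776 in db/+). Pericyte-like, smooth muscle-like and endocardial-like barcodes also carried RNA of neighbours: the 10 endothelial markers summed to 5555 and 6032 CPM in pericyte-like barcodes, and the 8 fibroblast markers to 3153 and 2545 CPM in endocardial-like barcodes. The libraries shared 7 barcode sequences, 5 of them after filtering.

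C3, the protein at which the pathways meet, was read almost wholly in fibroblasts and was lower in the db/db and salt library in all 4 fibroblast subsets. The gene lies at chr17:57203970-57228136 on the minus strand of GRCm38 (GENCODE M21). Levels are given as CPM, the gene's share of all UMIs of its class scaled to 1000000. Over all fibroblast-like barcodes C3 stood at 1078 CPM in db/+ (12731 UMIs, 1059 to 1097) and at 592 CPM in db/db and salt (7755 UMIs, 579 to 606), so that db/+ was 1.82-fold higher (1.77 to 1.87). In interstitial-like fibroblasts it was 1564 CPM in db/+ and 506 in db/db and salt, a 3.09-fold difference (2.87 to 3.33). The matrix-activated-like subset held 541 and 205 CPM, 2.65-fold apart (2.38 to 2.95). Adventitial-like fibroblasts held 1408 and 871 CPM, 1.62-fold apart (1.53 to 1.71), and the remaining fibroblasts 1140 and 656 CPM, 1.74-fold apart (1.67 to 1.81). The order of the subsets differed between the libraries as well. In db/+ C3 was highest in interstitial-like fibroblasts, 1.11-fold above the adventitial-like subset (1.05 to 1.18), whereas in db/db and salt the interstitial-like level was 0.581 of the adventitial-like level (0.54 to 0.625) and 0.772 of that of the remaining fibroblasts (0.723 to 0.824). Matrix-activated-like fibroblasts, which carry Cilp and Postn, were lowest of the 4 subsets in both libraries.

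**Figure D1:**
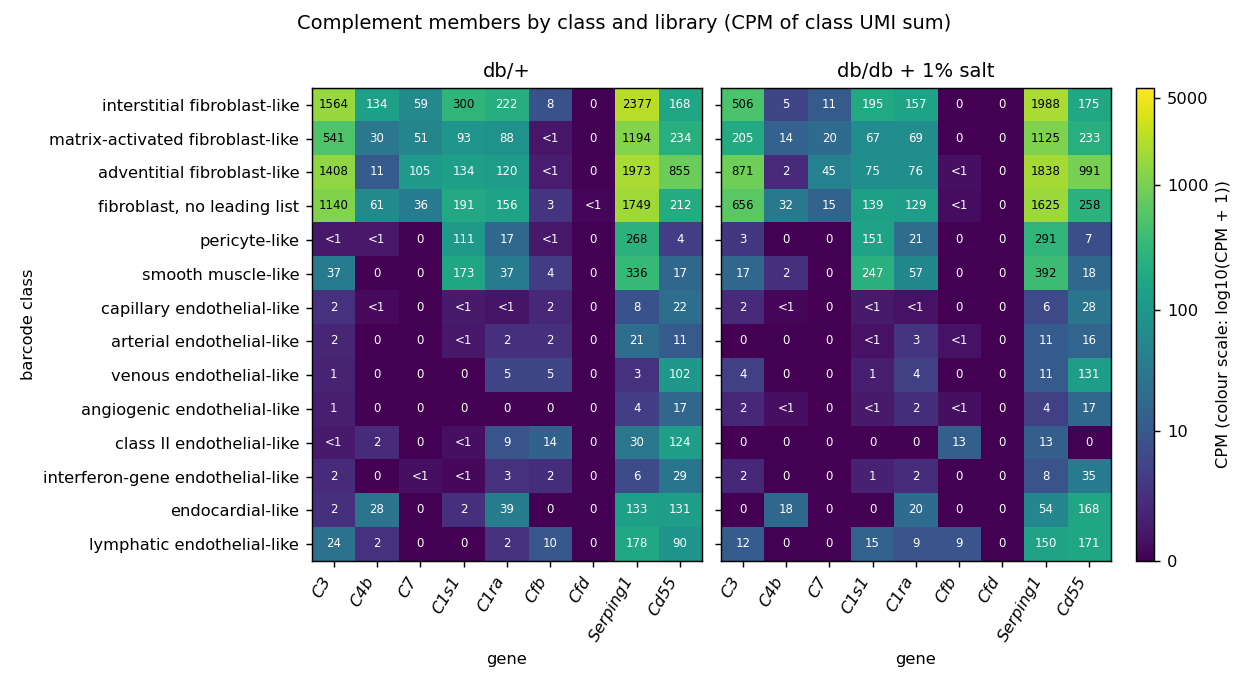
Levels of the 9 members in the 14 barcode classes (rows), db/+ on the left and db/db with 1% salt on the right; each cell prints CPM of the class UMI sum and the colour follows log10(CPM + 1). C3 and C7 are read mainly in the 4 fibroblast rows, and C4b in these and in the endocardial-like row (27.6 and 18.1 CPM). C1s1 and Serping1 are also read in the pericyte-like and smooth muscle-like rows. Cd55 is read in adventitial-like fibroblasts (855 and 991 CPM) and in several endothelial rows. The class II endothelial-like row holds 224 and 8 barcodes.

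In endothelial-like and mural-like barcodes C3 stood below the median level at which 10 other fibroblast genes were found in them. In endothelial-like barcodes it reached 0.175% of the fibroblast-like level in db/+ and 0.293% in db/db and salt, where the 10 genes, which took no part in the classes (Lum, Dpt and Col3a1 are among them), stood at a median of 0.213% and 0.337%. In mural-like barcodes C3 was at 1.37% and 1.57% of the fibroblast-like level, against a median of 2.14% and 2.92% for those genes. Smooth muscle-like barcodes gave 36.6 CPM (30 UMIs) and 16.7 CPM (14 UMIs), and 1 barcode in each library held 76.7% and 85.7% of these UMIs. The lymphatic endothelial-like barcodes gave 10 and 4 UMIs. In the db/db and salt library 2 barcodes left out of the classes for their mesothelial markers held 399 C3 UMIs, and none of the db/+ barcodes was left out on that ground.

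The difference in C3 was also seen in the share of barcodes with a C3 UMI. With every barcode thinned to 1500 UMIs, 51.7% of 1177 fibroblast-like barcodes in db/+ had a C3 UMI (48.8 to 54.5) and 36.8% of 1053 in db/db and salt (33.9 to 39.8); without thinning the shares were 72.3% and 63.5%. Endothelial-like barcodes, thinned alike, had a C3 UMI in 0.306% and 0.514% of cases. Barcodes with 5 or more C3 UMIs made up 11.5% of the fibroblast-like barcodes in db/+ and 5.89% in db/db and salt. The mean over barcodes with any C3 was 3.18 and 2.55 UMIs. A lower mean level alone can lower both the share with C3 and the amount in those barcodes, so these are not separate results. Among interstitial-like fibroblasts alone, 17.3% of barcodes in db/+ and 2.24% in db/db and salt reached 5 UMIs.

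**Figure D2:**
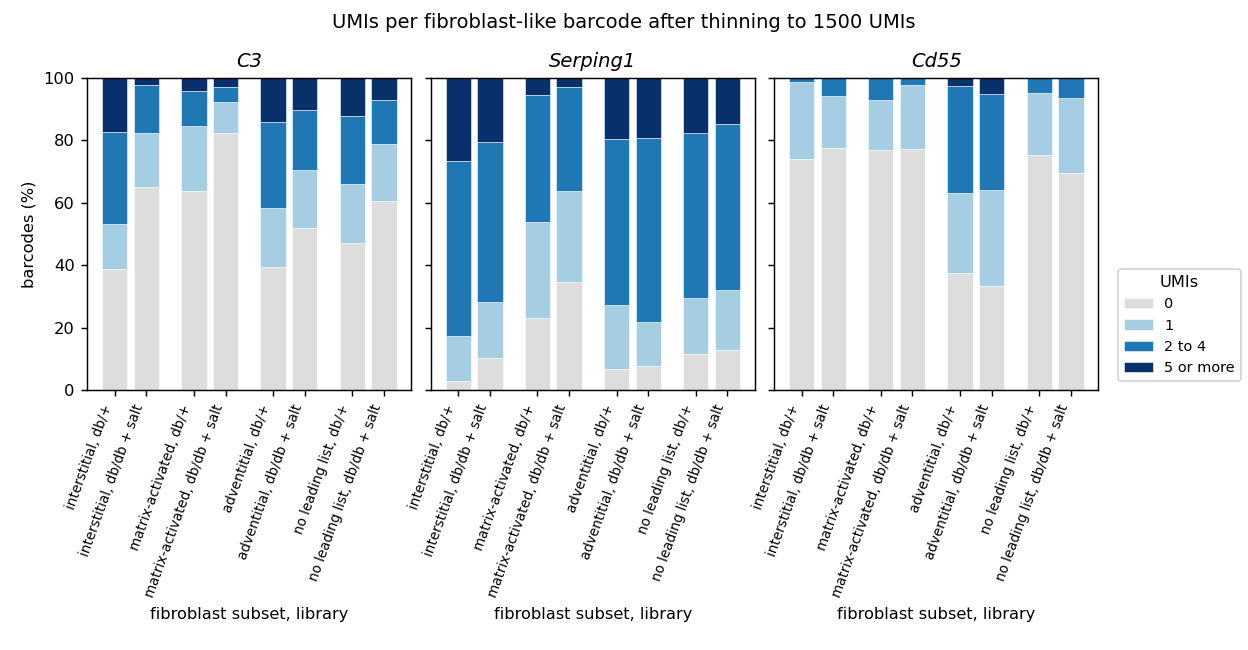
Share of fibroblast-like barcodes (y axis, percent) with 0, 1, 2 to 4, or 5 or more UMIs of C3, Serping1 and Cd55 after thinning to 1500 UMIs, by subset and library (x axis). The C3 bars without a UMI are taller in db/db and salt in every subset, 65.0% against 38.8% in interstitial-like fibroblasts, while the Cd55 bars differ mainly between the adventitial-like subset and the others.

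Fibroblasts with C3 differed from those without in the same direction in both libraries for several genes, Postn, C1s1, C1ra and Serping1 among them, though not for every member. Postn, a matrix gene of activated fibroblasts, had a UMI in 15% of C3-positive and 29.7% of C3-negative barcodes of db/+, and in 10.3% and 20.3% in the other library. Postn also helped to set the matrix-activated-like subset, which made up 14.3% of C3-positive and 26.9% of C3-negative barcodes of db/+. In db/db and salt that subset made up 6.44% and 17.4%. The part of the subset mix in the contrasts of this paragraph was not tested. C1s1 was found in 26.2% of C3-positive and 16.7% of C3-negative barcodes of db/+, and in 18.6% and 14.4% in db/db and salt. For C1ra these shares were 23.0% and 15.6% in db/+, and 16.0% and 14.6% in db/db and salt. Serping1 followed, with a UMI in 92.8% against 82.8% in db/+ and 91.8% against 81.8% in db/db and salt. Cd55 was found in 30.8% and 30.4% of the db/+ barcodes and in 36.1% and 31.4% of the other library. C4b was found in 4.11% of C3-positive and 2.64% of C3-negative barcodes of db/+, but in 1.55% and 1.95% in db/db and salt. C7 was nearly level, at 6.41% and 6.33% in db/+ and at 3.09% and 3.16% in db/db and salt. Across barcodes of a library the rank correlation of C3 with Serping1 was 0.218 in db/+ (1177 barcodes) and 0.204 in db/db and salt (1053 barcodes); these are descriptions of sparse counts from barcodes that share a library, and no test is attached.

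The 8 interferon genes used to mark an endothelial class (Ifit1, Isg15 and others) were also higher in the fibroblasts of the db/+ library, at a summed 301 CPM against 127 CPM, none of them at 0 in either library. C3 was as far apart in fibroblasts without a UMI of any of the 8: 1102 CPM in 565 barcodes of db/+ and 587 CPM in 607 barcodes of db/db and salt. In barcodes with 3 or more of the 8 genes it stood at 1087 CPM (173 barcodes) and 473 CPM (70 barcodes). In barcodes with none, with 1 or 2, and with 3 or more of the 8 genes, C4b stood at 16.1, 21.4 and 34.5 CPM in db/db and salt. C7 stood at 17, 23.0 and 30.2 CPM there. The last values rest on 32 UMIs of C4b and 28 of C7 in 70 barcodes, so they are uncertain. In db/+ the same groups held 43.1, 61.0 and 51.8 CPM of C4b, with no steady rise, and 55.0, 54.7 and 50.3 CPM of C7. The part of the interferon genes in the differences was not tested. Markers of other cell types in fibroblast-like barcodes moved between the libraries to different extents. The smooth muscle list summed to 194 CPM in db/+ and 131 CPM in db/db and salt, and the erythroid list to 6.60 and 4.13 CPM; their part in the differences was not tested either. The leukocyte list summed to 2.12 and 2.60 CPM with Ptprc at 0 in both, the hepatocyte list to 0.847 and 0.382 CPM with Alb at 0 in both, and the endothelial list to 298 and 259 CPM.

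Of the classical pathway, C1s1 and C1ra encode the proteases C1s and C1r, which lie near each other on chromosome 6 (C1ra at chr6:124512405-124523443 on the plus strand, C1s1 at chr6:124530345-124542359 on the minus strand). Both were read in fibroblasts and in mural cells, with a gradient among fibroblast subsets that was alike for the 2 genes. C1s1 stood at 300 CPM in interstitial-like, 191 in the remaining, 134 in adventitial-like and 93.0 in matrix-activated-like fibroblasts of db/+. In db/db and salt the same subsets held 195, 139, 74.7 and 67.2 CPM, the last 2 of which did not differ beyond counting error. C1ra followed the same order, from 222 down to 87.6 CPM in db/+ and from 157 down to 69.1 CPM in db/db and salt. The fibroblast-like totals were 167 and 126 CPM for C1s1, 1.32-fold higher in db/+ (1.24 to 1.41), and 139 and 115 CPM for C1ra, 1.21-fold higher (1.12 to 1.29). The difference was least in the remaining fibroblasts for C1ra (1.21-fold, 1.10 to 1.33) and largest in adventitial-like fibroblasts for both genes, at 1.8-fold for C1s1 (1.48 to 2.19) and 1.57-fold for C1ra (1.29 to 1.92).

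In mural cells C1s1 went the other way. It was 111 CPM in pericyte-like barcodes of db/+ and 151 in db/db and salt, and 173 and 247 CPM in smooth muscle-like barcodes. Over all mural-like barcodes the level was 135 and 195 CPM (283 and 356 UMIs), 1.44-fold higher in db/db and salt (1.23 to 1.69), short of the 1.5-fold limit. C1s1 in smooth muscle-like barcodes was level with fibroblasts in db/+ (ratio 1.04, 0.869 to 1.23) but above them in db/db and salt (ratio 1.96, 1.69 to 2.27). In mural-like barcodes the 10 fibroblast genes that took no part in the classes were at a median of 2.14% and 2.92% of the fibroblast level. They reached at most 14.5% and 16.0%, and C1s1 was at 81.0% and 155%. The source of these RNAs was not tested. C1ra in mural-like barcodes was 24.8 and 37.8 CPM from 52 and 69 UMIs (1.52-fold higher in db/db and salt, 1.05 to 2.23), at 17.9% and 32.9% of the fibroblast level. In capillary endothelial-like barcodes, which are the largest class, C1s1 gave 7 and 8 UMIs and C1ra 5 and 5.

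C4b encodes complement C4, the first substrate of C1s, and lies at chr17:34728380-34743882 on the minus strand. Its near-identical copy C4a was not analysed here, so that reads the copies share make the C4b counts uncertain. C4b was found in few fibroblasts but in amount in some of them. In db/+ 609 UMIs were found in 132 of 1186 fibroblast-like barcodes and in db/db and salt 254 UMIs in 71 of 1061, with the 10 richest barcodes holding 53.9% and 59.1%. The summed levels were 51.6 and 19.4 CPM, 2.66-fold apart (2.29 to 3.09). A single interstitial-like barcode of db/+ held 121 UMIs; with the richest barcode of each library left out the log2 ratio of db/db and salt over db/+ over all fibroblasts was -0.92 in place of -1.07. That barcode also sets the interstitial-like value, 134 CPM in db/+ and 5.21 in db/db and salt. The log2 ratio of that subset was -3.24 with all barcodes and -1.49 with the richest barcode of each library left out. The remaining fibroblasts, with 346 and 207 UMIs, rested on more UMIs, at 61.3 and 32.4 CPM (1.89-fold, 1.59 to 2.26). In matrix-activated-like fibroblasts the levels were 30.4 and 14.5 CPM, and without the richest barcodes their log2 ratio was -0.51, short of the limit. Adventitial-like fibroblasts had 22 and 4 UMIs. Endocardial-like barcodes were the other place where C4b was seen, at 27.6 CPM (12 UMIs) and 18.1 CPM (11 UMIs), an order of magnitude or more above the endothelial-like level of 0.323 and 0.120 CPM; the ratio to that level was 85.3 in db/+ (29.6 to 277). The 10 fibroblast genes that took no part in the classes reached at most 28.9% and 17% of the fibroblast level in endocardial-like barcodes. C4b was at 53.5% and 93.4%, on few UMIs, and the source of these RNAs was not tested.

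C7, which joins the membrane attack complex after C5b and C6, was read, within the 14 classes, in fibroblasts apart from 2 UMIs, and was highest in the adventitial-like subset. The gene lies at chr15:4988762-5063740 on the minus strand. Adventitial-like fibroblasts held 105 CPM in db/+ (219 UMIs) and 44.9 CPM in db/db and salt (101 UMIs), 2.93-fold and 2.99-fold above the remaining fibroblasts of the same library. The interstitial-like subset held 59.4 and 10.9 CPM, the matrix-activated-like subset 50.7 and 20.1 CPM, and the remaining fibroblasts 36.0 and 15 CPM. All 4 subsets were lower in db/db and salt, by 2.35-fold (1.85 to 3.0) in the adventitial-like to 5.47-fold (3.41 to 9.04) in the interstitial-like subset. Over all fibroblasts the levels were 54.1 and 20.2 CPM, 2.67-fold apart (2.31 to 3.10), and the richest barcode held 2.35% and 2.64% of the UMIs, so that no single barcode sets the value. Mural-like barcodes had 0 UMIs in both libraries, which allows up to 1.43 and 1.64 CPM (3 counts), and endothelial-like barcodes had 2 UMIs in db/+, both in 1 barcode, and 0 in db/db and salt.

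The alternative pathway genes were at the limit of detection. Cfb (factor B, chr17:34856374-34862518 on the minus strand) gave 126 UMIs in all kept barcodes of db/+ and 15 in the other library. In fibroblast-like barcodes it gave 28 and 3 UMIs, 10.3-fold apart with a wide interval (3.19 to 53.2), and in endothelial-like barcodes 61 and 3 UMIs, 18.3-fold apart (5.97 to 91.1). Mural-like barcodes gave 4 and 0 UMIs, too few to give a direction. Cfb was thus read mainly in db/+ in fibroblast-like and endothelial-like barcodes, at low levels. Lymphatic endothelial-like barcodes gave 4 and 3 UMIs, at 9.73 and 8.82 CPM. Among endothelial-like barcodes of db/+ the class II subset, which carries antigen-presenting genes, had the highest level, 14.0 CPM from 31 UMIs in 224 barcodes, 8.39-fold above the capillary level (4.26 to 17.5). That subset held 8 barcodes in db/db and salt, with 1 Cfb UMI, which alone amounts to 13.1 CPM. Without the class II and interferon-gene subsets the endothelial counts were 20 and 2 UMIs, still 12.1-fold apart (2.94 to 107). Cfd (factor D or adipsin, chr10:79890853-79892655 on the plus strand), a product of adipocytes, gave 1 UMI in a fibroblast-like barcode of db/+ and 0 in db/db and salt.

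The inhibitor gene Serping1 (chr2:84765387-84775444 on the minus strand) was nearly universal in fibroblasts and differed little between the libraries there. Its level over all fibroblast-like barcodes was 1710 CPM in db/+ (1686 to 1733) and 1644 CPM in db/db and salt (1622 to 1666), 1.04-fold apart. Thinned to 1500 UMIs, 87.9% and 85.5% of fibroblast-like barcodes had a UMI; unthinned, 99.4% had one in each library. By subset it stood at 2377 and 1988 CPM in interstitial-like, 1973 and 1838 in adventitial-like, 1749 and 1625 in the remaining and 1194 and 1125 in matrix-activated-like fibroblasts. The order of the subsets was thus the same in both libraries, and in the interstitial-like subset, where C3 differed most, db/+ was 1.2-fold higher for Serping1 (1.14 to 1.25). Mural cells came next, with 268 and 291 CPM in pericyte-like and 336 and 392 CPM in smooth muscle-like barcodes, at 17.2% and 20.5% of the fibroblast level for all mural-like barcodes together. Endothelial-like barcodes held 10.6 and 6.89 CPM, at 0.618% and 0.419% of the fibroblast level. Both lay within the range of the 10 fibroblast genes that took no part in the classes (0.144% to 4.23% and 0.254% to 3.47%). Lymphatic endothelial-like barcodes held 178 and 150 CPM, from 23 and 24 barcodes. Arterial endothelial-like barcodes held 21.4 and 11.4 CPM (28 and 21 UMIs), 1.88-fold higher in db/+ (1.03 to 3.47), and the endothelial-like total was 1.53-fold higher there (1.21 to 1.95). The class II subset held 67 UMIs in 224 barcodes of db/+ and 1 UMI in 8 barcodes of db/db and salt. Without the class II and interferon-gene subsets the endothelial counts were 100 and 94 UMIs, 1.29-fold higher in db/+ with an interval that includes 1 (0.963 to 1.73). Endocardial-like barcodes also differed, at 133 CPM (58 UMIs) and 54.4 CPM (33 UMIs), 2.45-fold higher in db/+ (1.57 to 3.88). Serping1 there was at 7.80% and 3.31% of the fibroblast level, within the range of the 10 fibroblast genes that took no part in the classes. That range was 0.148% to 28.9% in db/+ (median 1.28%) and 0.400% to 17% in db/db and salt (median 2.41%). The 8 fibroblast markers summed to 3153 and 2545 CPM in these barcodes, the 4 class II markers to 864 and 21.4 CPM and the 8 interferon genes to 609 and 181 CPM, and the part of these RNAs in the differences between endocardial-like barcodes was not tested.

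Cd55 (chr1:130439027-130462744 on the minus strand), the membrane regulator, was highest in adventitial-like fibroblasts, as C7 was, and was also read in the endothelium. Adventitial-like fibroblasts, the Pi16 and Dpp4 subset, held 855 CPM in db/+ (1778 UMIs) and 991 CPM in db/db and salt (2229 UMIs), and 97.4% and 99.4% of their barcodes had a UMI before thinning. The other subsets stood between 168 and 234 CPM in db/+ and between 175 and 258 CPM in db/db and salt, so the adventitial-like level was 4.03-fold and 3.83-fold above that of the remaining fibroblasts. Cd55 was not lower in db/db and salt in the fibroblasts as a whole: 327 and 365 CPM, 1.12-fold higher there (1.07 to 1.17). In the endothelium it marked some subtypes over others. Venous endothelial-like barcodes held 102 and 131 CPM, 4.66-fold above the capillary level of 21.8 CPM in db/+ and 4.75-fold above the 27.6 CPM in db/db and salt. Arterial endothelial-like barcodes were below the capillary level in both libraries, at 10.7 and 16.3 CPM (ratios of 0.491 and 0.591). Endocardial-like barcodes held 131 and 168 CPM and the class II subset of db/+ 124 CPM (275 UMIs), while the 8 class II barcodes of db/db and salt had none, which allows up to 39.4 CPM. Lymphatic endothelial-like barcodes, 23 and 24 in number, held 37 and 58 Cd55 UMIs. The level there was 1.9-fold higher in db/db and salt (1.23 to 2.95), at 171 CPM, past the 1.5-fold limit. Pericyte-like barcodes had the least, 3.92 and 7.10 CPM. Over all endothelial-like barcodes Cd55 was 37.7 and 31.7 CPM, lower in db/db and salt, and without the class II and interferon-gene subsets 25 and 31.3 CPM, higher in db/db and salt.

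**Figure D3:**
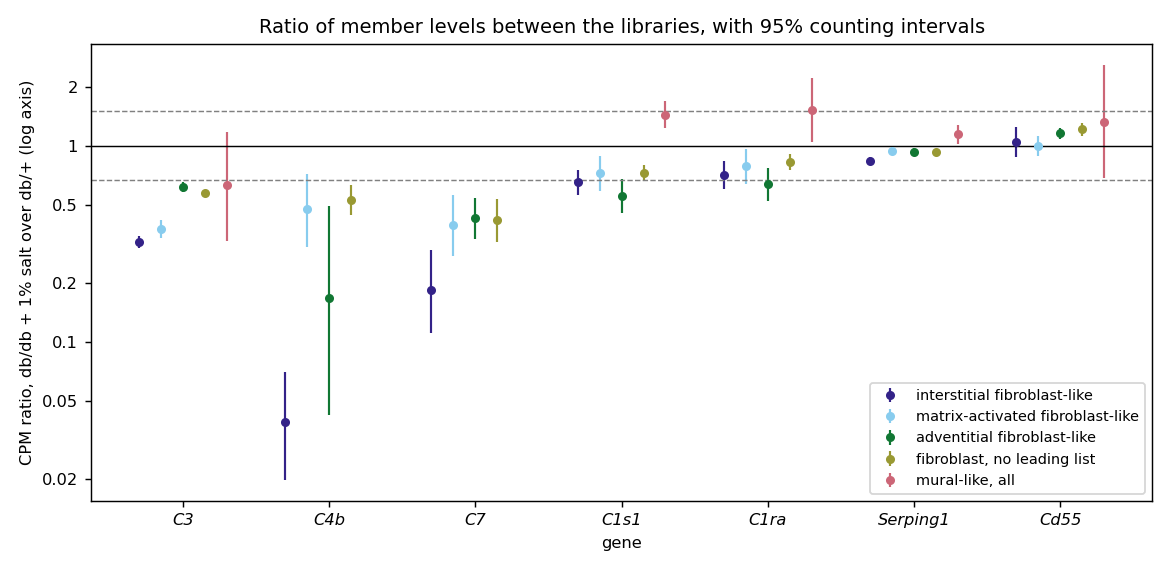
CPM in db/db with salt divided by CPM in db/+ (y axis, log scale) for the 7 members with at least 10 CPM, by fibroblast subset and for all mural-like barcodes; points are ratios, bars their 95% counting intervals, the solid line is a ratio of 1 and the dashed lines are 1.5-fold either way. C3, C4b and C7 lie below the lower dashed line in all 4 fibroblast subsets, C1s1 and C1ra lie below 1 in fibroblasts and above 1 in mural-like barcodes, and Serping1 and Cd55 lie near 1; the size of the interstitial-like C4b difference is set by 1 barcode.

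Counted together, with a difference called where log2 of (CPM + 10) moved by 1.5-fold or more and with the genes of at least 10 CPM in either library, 3 of the 7 members tested in all fibroblast-like barcodes were lower in db/db and salt (C3, C4b and C7) and none was higher; Cfb and Cfd were under the minimum. Over all 8859 genes of that class 1.02% were lower and 0.598% higher, and the median log2 ratio was -0.38 for the members and 0.03 for all genes. In interstitial-like fibroblasts 4 of 7 members were lower (C3, C4b, C7 and, just past the limit and lost under 3 of 9 alternatives, C1s1), where 1.95% of all genes were and 2.91% were higher. In the matrix-activated-like subset 3 of 7 were lower against 1.73% of all genes (1.31% higher), in the remaining fibroblasts 3 of 7 against 1% (0.709% higher), and in adventitial-like fibroblasts 5 of 7 (C1s1 and C1ra in addition, each lost under 3 of 9 alternatives) against 1.7% (1.59% higher). No member was past 1.5-fold higher in any of the 4 fibroblast subsets. With the log2 ratios of the 4 subsets averaged, so that their mix was equal in both libraries, C3 was at -1.11 in place of -0.85. In mural-like barcodes none of 5 members tested was past the limit (2.08% of 9271 genes were lower and 1.88% higher), and in endothelial-like barcodes neither of the 2 tested was (1.47% of 8376 genes lower and 0.466% higher). In smooth muscle-like barcodes 1 of 5 members was lower, where 5.15% of all genes were lower and 5.79% higher, and it was C3, most of whose UMIs there lay in 1 barcode. None of the 3 members tested in pericyte-like barcodes was past the limit (3.4% of all genes lower and 3.74% higher). In endocardial-like barcodes 2 of 4 members, C1ra (17 and 12 UMIs) and Serping1, were lower, beside the class II and interferon gene differences given above; 7.94% of all genes were lower and 11.3% higher there, with 52 barcodes per library. In venous endothelial-like barcodes 1 of 2 members was higher, Serping1 on 2 and 10 UMIs, where 5.8% of all genes were higher and 3.87% lower. Cd55 was not past the limit in the capillary (1.17% of all genes lower, 0.65% higher), angiogenic-like (1.38% and 2.06%) or interferon-gene subset (1.25% and 1.38%), nor were Cd55 and Serping1 in arterial endothelial-like barcodes (1.76% and 2.28%). The lymphatic and class II classes held under 50 barcodes in a library, and no shares of all genes are given for them. Of 4 members tested in lymphatic endothelial-like barcodes, C1s1 (0 and 5 UMIs) and Cd55 were higher past the limit. C3 was lower there (10 and 4 UMIs). In the class II subset Serping1 and Cd55 were lower, against 8 barcodes in db/db and salt.

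The other complement genes of the files, 52 in number, were measured in the same way. In all fibroblast-like barcodes 10 of them reached 10 CPM and none was past 1.5-fold in either direction, with a median log2 ratio of -0.02. Of all genes there 1.02% were lower and 0.598% higher. None of the 11 tested in mural-like barcodes was past it (2.08% and 1.88% of all genes), nor of the 8 in endothelial-like barcodes (1.47% and 0.466%). At such shares these counts do not set the genes apart from all genes. In single classes, Cd93 was lower past the limit in matrix-activated-like fibroblasts (1.73% of all genes lower). Colec12 was higher past it in smooth muscle-like barcodes (5.79% of all genes higher). Vtn (vitronectin, an inhibitor of the terminal complex) and Colec11 (a lectin that starts the lectin pathway) were pericyte genes, at 750 and 702 CPM and at 614 and 568 CPM in pericyte-like barcodes. Clu (clusterin, another terminal inhibitor) was found in smooth muscle-like (384 and 306 CPM), arterial (281 and 243 CPM) and endocardial-like barcodes (574 and 437 CPM). In adventitial-like fibroblasts it was lower past the limit on 58 and 11 UMIs, and in venous endothelial-like barcodes it was 4.29-fold higher in db/db and salt (27.4 and 117 CPM, 2.67 to 7.20).

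Membrane regulators and receptors were read in the endothelium. Cd59a, which blocks pore formation by C9, was 1.66-fold higher in capillary endothelial-like barcodes of db/db and salt (67.8 and 112 CPM, 1.49 to 1.84), past the limit. The angiogenic-like subset was 1.76-fold higher (1.34 to 2.32), the interferon-gene subset 1.59-fold (1.34 to 1.90) and adventitial-like fibroblasts 1.99-fold (1.29 to 3.13, on 32 and 69 UMIs), all past it. The difference was 1.46-fold over all endothelial-like barcodes (1.36 to 1.56), short of the limit on the log2 scale. Cr1l, the rodent regulator also called Crry, stood near 200 CPM in capillary endothelial-like barcodes (201 and 208 CPM) and at 110 and 107 CPM in fibroblasts. Thbd, thrombomodulin, which also favours the inactivation of C3b, was highest in venous endothelial-like barcodes (546 and 488 CPM) among the classes of 50 or more. Cd93, once described as a C1q receptor, stood at 1067 and 1286 CPM in endothelial-like barcodes. The C1q genes C1qa, C1qb and C1qc gave 2 or 3 UMIs each in a whole library, and the copies C1rb, C1s2 and Cd55b 0 to 2, so that the C1q subunits, which macrophages are known to make, were near 0 in these leukocyte-depleted samples while C1r and C1s were read.

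**Figure D4:**
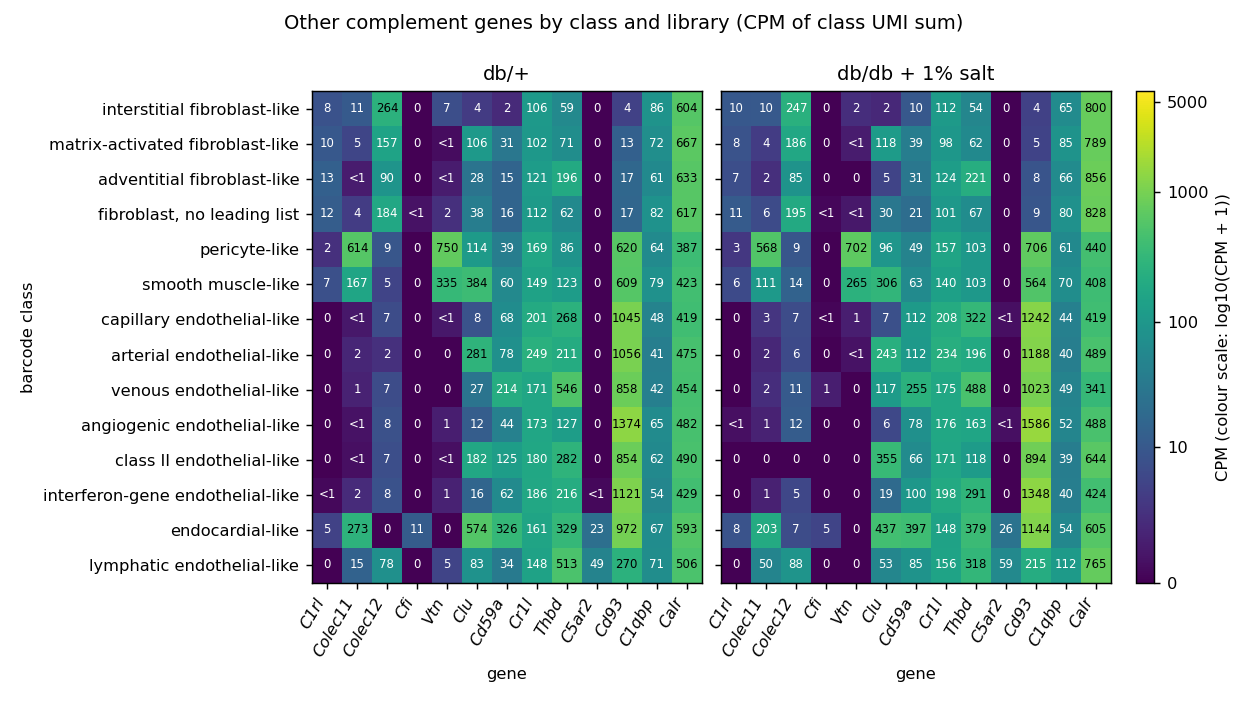
Levels of other complement genes with at least 10 CPM in a class of 50 or more barcodes per library (columns, genes not reported here left out), in the 14 barcode classes (rows), db/+ on the left and db/db with 1% salt on the right; each cell prints CPM and the colour follows log10(CPM + 1). Clu is highest in the endocardial-like row (574 and 437 CPM), Vtn and Colec11 in the pericyte-like row, and Cd93 across the endothelial rows, with nearly the same picture in both libraries.

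Genes with levels most like those of each member over 24 class sums (12 classes in 2 libraries) were sought among 5701 genes by the Pearson r of log2 of CPM + 10. These sums share libraries and depth, and the correlations are descriptions. The 3 genes most like C3 included Clec3b (0.991) and Ifi205 (0.986). C7 was most like Ccl7 (0.970), Lrrn4cl (0.956) and Vat1 (0.954), and C4b most like Itgbl1 (0.869), Trf (0.845) and Mmp3 (0.845). The 3 nearest to C1s1 included Pcdh18 (0.982) and Khdrbs3 (0.980). C1ra was nearest to Fth1 (0.974), Serpine2 (0.968) and the member Serping1 (0.968), and Serping1 to Clip3 (0.989), Sdc2 (0.988) and Efemp2 (0.987). Cd55 was nearest to Flnc (0.955), Igfbp6 (0.944) and Ahnak2 (0.920). Cfb and Cfd were too low for such a comparison.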

How the data were processed

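The authors deposited 1 matrix of raw UMI counts for each library, and no normalization had been applied to it. Cell Ranger 6.0.2 made the matrices, per the file headers. The submitters' processing notes name GRCm38 (mm10) and also Seurat, without its role. Hearts were digested with collagenase, and libraries were made with the 10x 3' kit, per the labels' protocols. How barcodes were selected before deposit is not stated. No barcode held under 500 UMIs. No sample beyond the 2 libraries was present.

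Barcodes with more than 10% mitochondrial UMIs or under 500 genes were left out, and Scrublet (scanpy 1.11.5, 0.8% expected per 1000 cells) removed 76 of 4948 (1.54%) and 47 of 4144 (1.13%). Classes were set by marker UMIs. A barcode needed at least 4 markers of the endothelial, fibroblast or mural lists, which had to hold 80% of its lineage marker UMIs (60% for mural and endocardial barcodes), and subsets were set by the list furthest above its mean. Barcodes with markers of other types (416 and 223), of several lineages (87 and 77) or of none (109 and 63) stayed out. Within 10 points of the fibroblast limit lay 69 and 34 barcodes inside and 17 and 11 outside; just inside and outside the ratio for fibroblast subsets lay 140 and 131, and 185 and 209. The marker lists, the members and the other complement genes were chosen with earlier results of these data known, and the scoring rule after the data were seen.

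For each class and library the UMIs were added up, and the sums expressed as CPM with exact Poisson intervals (95%). Ratios between sums have exact conditional intervals, and the value called is log2 of CPM plus 10 over CPM plus 10, which understates the change of low genes. Shares have exact Clopper-Pearson intervals after thinning each barcode to 1500 UMIs, which left out 261 and 130 shallower barcodes. A count of 0 is given with the limit of 3 counts. Genes that share reads with a copy (C4b, C1ra, C1s1 and Cd55) are uncertain to that extent, as is any overlap of genes. Named genes are the 9 members, other complement genes with at least 10 CPM in a class of 50 barcodes per library, and the 3 genes most like each member among those with at least 50 CPM in a class sum. Some genes that met this rule are not reported here, though the counts of genes include them. The calculation was tested on simulated data. Python 3.11.15, numpy 2.4.6, scipy 1.17.1, pandas 2.3.3, R 4.3.3 and edgeR 4.0.16 (TMM scaling) were used. Alternatives were the mitochondrial limit, doublets, the marker rule, TMM scaling, the pseudocount, thinning and equal weight for each barcode. Leaving out the richest barcode, and averaging over subsets, were added after seeing the data.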

Additional observations from a re-analysis of the deposited data

How the results depend on the processing

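The count of 3 fibroblast members lower in db/db and salt held under the other alternatives but was 1 (C3) with a pseudocount of 50 CPM, since C4b and C7 have low levels. In all mural-like barcodes the count of members past 1.5-fold was 0, and it became 1 higher with the stricter marker rule (C1ra), 1 higher and 1 lower with a pseudocount of 1 CPM (C1ra and C3) and 1 lower after thinning to 1500 UMIs (C3). C3 was lower in db/db and salt in all 4 fibroblast subsets under every alternative run. Its log2 ratio over all fibroblasts ranged from -1.11 to -0.80, and that of the adventitial-like subset was -0.52 after thinning, short of the limit. C4b ranged from -1.38 to -0.55 and C7 from -1.37 to -0.57 over all fibroblasts. Each of 4 calls was ended by 3 of 9 alternatives: C1s1 in the interstitial-like (-0.68 to -0.47) and adventitial-like (-0.95 to -0.53) subsets, C1ra in the adventitial-like subset (-0.76 to -0.43) and C4b in the matrix-activated-like subset (-1.43 to -0.16). The mural C1s1 value ranged from 0.32 to 0.53, always higher in db/db and salt and never past the limit; the mural signs of C3, C1ra, Serping1 and Cd55 each turned under 1 of 9 alternatives. The other complement counts moved under none of the alternatives run. TMM scaling moved all genes by -0.02 to -0.09 on the log2 scale. No paired analysis was possible because each group is a single library. Depth limits the low members: Cfb, Cfd and, outside fibroblasts, C4b and C7 rest on few UMIs.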
